A study of Mus musculus with 9 samples.

Results

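The AP-2 transcription factors of the mouse are 5 genes, listed on the arrays under the older symbols Tcfap2a, Tcfap2b, Tcfap2c, Tcfap2d and Tcfap2e and now named Tfap2a to Tfap2e. The members were chosen by gene symbol alone, and 12 of the 25697 probes carry one of the 5 symbols, among 18120 symbols in all. No intensity entered that rule, but the family was picked with earlier results of these same arrays known, so the tests below measure a difference against the spread between arrays and are not independent evidence. Tcfap2a has 3 probes, Tcfap2b 4, Tcfap2c 3, and Tcfap2d and Tcfap2e 1 each.

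AP-2 proteins bind GC-rich DNA as dimers and act with coactivators of the Cited family and p300. In the embryo they are known for roles in non-neural ectoderm, neural crest and its facial and cranial derivatives, limb bud and kidney. The otic vesicle (OV) is the closed epithelial sac from which the inner ear forms, and it arises from non-neural ectoderm next to the hindbrain. Whether each paralog is lower or higher in that epithelium than in the tissue around it and in the remaining embryo is the question the comparisons address.

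All tissue came from CD-1 mouse embryos at E10.5, with no allele or agent added. There were 3 groups of 3 arrays each: dissected OV, the periotic tissue around it, and whole embryos from which the otic regions had been removed (embryo-minus-otic). Each array held RNA of a pool of dissected tissue, and the embryo-minus-otic pools mixed all other organs. Per the study's methods the embryos came from 3 separate litters, and which litter went into which pool is not given in the sources used here. The 10 otic epithelium markers were all higher in OV than in both other groups, with summed levels of 7531 to 8205 on the OV arrays, 960.1 to 1098 on the periotic arrays and 1166 to 1249 on the embryo-minus-otic arrays. Between 43.9% and 47.3% of probes were above background on an array, meaning a detection p under 0.01.

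Promoter windows are shown for the paralogs with the lower OV signal that the reference sequence table holds, taken from RefSeq on GRCm38.p6 as 250 bases before an annotated transcript start. The table held 7 such windows for 4 of the 5 genes, and Tfap2c was not among them. Each window was searched for GCCNNNGGC and GCCNNNNGGC, the palindromic core that AP-2 proteins bind with either spacing, which reads the same on both strands. The only match in the 7 windows was in 1 of the 2 windows of Tfap2a, at chr13:40734921-40735170 on the minus strand. It starts 167 bases before the transcript start, is of the longer spacing, overlaps no match of the shorter one and is given in capitals. This window lies inside the annotated Tfap2a gene and overlaps the lncRNA Gm26688. The Tfap2b window, at chr1:19211804-19212053 on the plus strand, also lies inside its own gene and held no match.
Tfap2a: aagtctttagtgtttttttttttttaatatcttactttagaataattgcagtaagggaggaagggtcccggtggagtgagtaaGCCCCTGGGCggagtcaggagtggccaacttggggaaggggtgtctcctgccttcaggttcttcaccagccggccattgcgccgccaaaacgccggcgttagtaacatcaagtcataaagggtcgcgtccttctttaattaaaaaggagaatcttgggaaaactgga
Tfap2b: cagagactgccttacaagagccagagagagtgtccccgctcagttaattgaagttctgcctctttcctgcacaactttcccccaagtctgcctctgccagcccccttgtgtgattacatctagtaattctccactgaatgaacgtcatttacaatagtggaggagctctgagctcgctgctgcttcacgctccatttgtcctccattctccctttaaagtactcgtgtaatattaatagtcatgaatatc
Of all 32851 windows of this length in the table, 13.7% held the shorter spacing, 12.3% the longer one and 23% either. Tfap2b and Tfap2d are neighbours on chromosome 1, with 0 protein-coding genes between them.

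Tcfap2b, which is needed in neural crest derivatives and in the developing kidney, was the paralog with the widest gap between OV and the other tissues. Intensities were put on a log2 scale and quantile normalized across arrays, and all levels below are on that log2 scale. For Tcfap2b probe 1 (ILMN_1223731) the OV arrays read 6.60, 6.41 and 6.19. The periotic arrays read 9.50, 9.65 and 9.53, and the embryo-minus-otic arrays 9.73, 9.69 and 9.62. All 6 non-otic arrays were far above the OV arrays, and the non-otic groups overlapped each other. The signal on OV arrays was close to background, since replicates 1 and 2 were above it and replicate 3 was not. The mean was 6.40 ± 0.21 (SD, n = 3) in OV, 9.56 ± 0.078 in periotic tissue and 9.68 ± 0.055 in embryo-minus-otic. One limma model of the 3 groups was fitted over all probes, and q is its Benjamini-Hochberg adjusted p. The OV mean was 8.95-fold below the periotic mean (q = 1.96e-11) and 9.70-fold below the embryo-minus-otic mean (q = 4.25e-11). In dissected tissue, fewer cells that express a gene and less RNA per cell cannot be told apart.

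The other measured Tcfap2b probes were also lowest in OV. Probe 2 (ILMN_2760450) read 6.10, 5.97 and 6.01 on the OV arrays, none of them above background. It read 8.17, 8.34 and 8.20 on the periotic arrays and 8.32, 8.41 and 8.16 on the embryo-minus-otic arrays. Its OV level is therefore only a bound, and the signal was at least 4.10-fold higher in periotic tissue (q = 1.71e-10) and at least 4.27-fold higher in embryo-minus-otic (q = 3.38e-10). These bounds set the brighter mean against, on each OV array, either the dim value itself or the dimmest signal that any probe above background had there, whichever was higher. Probe 3 (ILMN_3151298), annotated to transcript variant 2, read 6.25, 5.88 and 5.79 in OV, with only replicate 1 above background. On the periotic arrays it read 8.21, 8.37 and 8.28, and on the embryo-minus-otic arrays 8.04, 7.93 and 8.09. It was called lower in OV than in periotic tissue (q = 8.58e-10) and embryo-minus-otic (q = 4.26e-09), by 4.18-fold and 3.48-fold with the 2 dim OV arrays raised to the same floor, and by 4.97-fold and 4.13-fold as measured. Probe 4 (ILMN_3072487), annotated to the same variant, was above background on 0 of 9 arrays and ranged from 5.47 to 6.17, so the 2 probes of that variant disagreed.

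Folds of dim probes depend on how background is treated. With the neqc background correction, Tcfap2b probe 1 was 16.2-fold and 17.7-fold lower in OV than in periotic tissue and embryo-minus-otic. The differences fitted for probes 2 and 3 also grew, by 2.09 to 2.17 times as a fold, and give no level because most of their OV arrays were not above background. As a description, probe 1 had the largest measured drop of all 25697 probes when OV was set against the lower non-otic group mean.

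**Figure D1:**
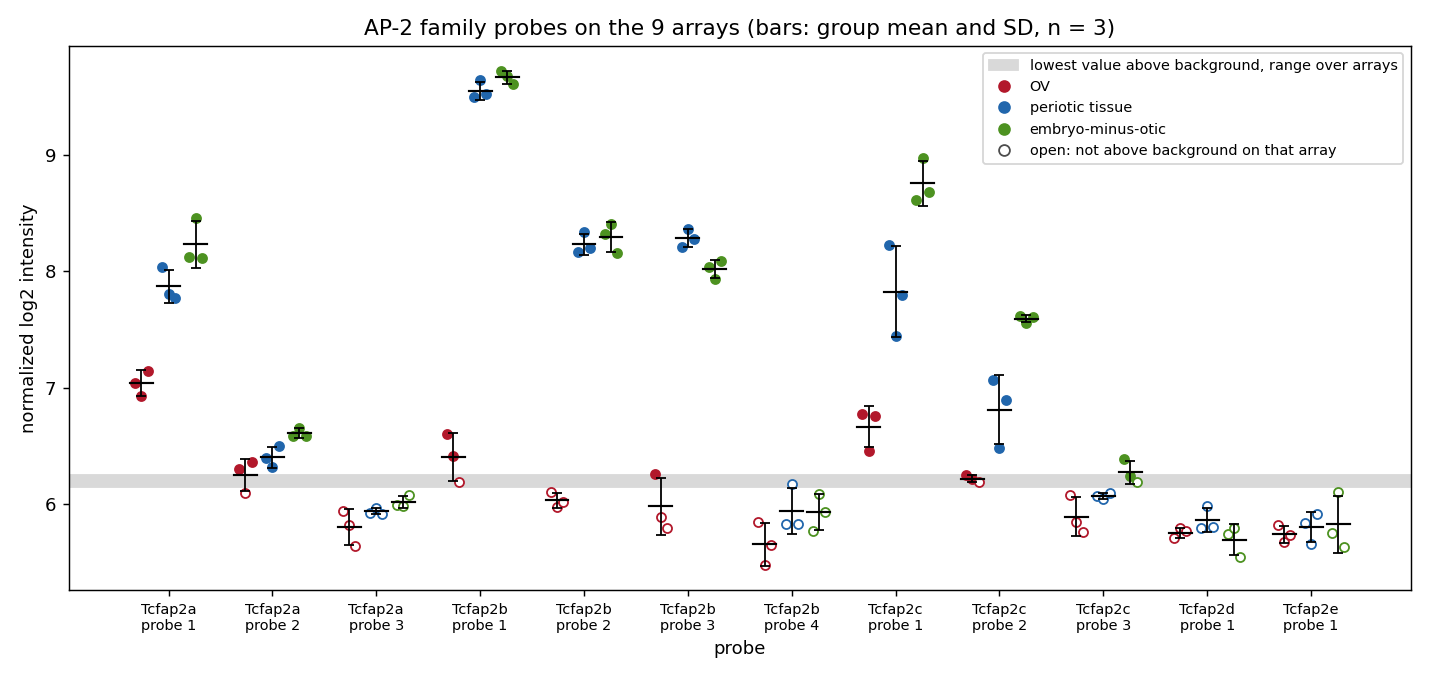
Normalized log2 intensity of the 12 AP-2 probes on each of the 9 arrays, with the mean and SD of each group of 3 and open points where a probe was not above background. Tcfap2b probes 1 to 3 lie between 7.93 and 9.73 on the non-otic arrays and at or below 6.60 on the OV arrays, whereas Tcfap2c probes 1 and 2 differ between all 3 groups.

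Tcfap2c, known for roles in trophoblast, germ cells and surface ectoderm, was lower in OV and also differed between the non-otic groups. Probe 1 (ILMN_2783225) read 6.77, 6.46 and 6.76 on the OV arrays. It read 8.23, 7.44 and 7.80 on the periotic arrays and 8.62, 8.98 and 8.68 on the embryo-minus-otic arrays. No group overlapped another, and the order was embryo-minus-otic, then periotic tissue, then OV. The mean was 6.66 ± 0.18 (SD, n = 3) in OV, 7.82 ± 0.39 in periotic tissue and 8.76 ± 0.19 in embryo-minus-otic. OV was 2.24-fold below periotic tissue (q = 1.04e-04) and 4.28-fold below embryo-minus-otic (q = 1.96e-07), a fold of 6.44 with neqc. Periotic tissue was 1.91-fold below embryo-minus-otic (q = 0.00168).

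Probe 2 (ILMN_2783226) of Tcfap2c repeated this order at a lower signal. The OV arrays read 6.25, 6.21 and 6.18, the periotic arrays 7.06, 6.48 and 6.89, and the embryo-minus-otic arrays 7.62, 7.56 and 7.61. The groups were again separate, and OV replicate 3 was not above background. It was 1.51-fold lower in OV than in periotic tissue (q = 0.00307) and 2.60-fold lower than in embryo-minus-otic (q = 7.23e-07), a fold of 4.43 with neqc. It was 1.72-fold lower in periotic tissue than in embryo-minus-otic (q = 5.39e-04). The calls between the non-otic groups depended on the scaling, with q = 0.208 for probe 1 and 0.0743 for probe 2 under median normalization in place of quantile normalization. Probe 3 (ILMN_1231632) was above background on 2 of 9 arrays, both embryo-minus-otic, and was at least 1.05-fold higher there than in OV (q = 0.0167). That call was lost without OV replicate 2 (q = 0.0688), without OV replicate 3 (q = 0.0872) and without embryo-minus-otic replicate 1 (q = 0.0646).

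Tcfap2a, which acts in neural crest, facial ectoderm and lens, was lower in OV but stayed above background there. Probe 1 (ILMN_2764846) read 7.04, 6.93 and 7.15 on the OV arrays, all above background. It read 8.04, 7.81 and 7.77 on the periotic arrays and 8.12, 8.46 and 8.11 on the embryo-minus-otic arrays. The OV arrays were lowest, with means of 7.04 ± 0.11 (SD, n = 3) in OV, 7.87 ± 0.14 in periotic tissue and 8.23 ± 0.20 in embryo-minus-otic. OV was 1.78-fold below periotic tissue (q = 7.45e-05) and 2.29-fold below embryo-minus-otic (q = 1.76e-06). The non-otic groups did not overlap but their difference, -0.36 with a 95% interval of -0.60 to -0.12, did not pass (q = 0.0798).

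The second measured probe of Tcfap2a moved less. Probe 2 (ILMN_2913031) read 6.29, 6.09 and 6.36 on the OV arrays, 6.39, 6.31 and 6.49 on the periotic arrays and 6.58, 6.65 and 6.58 on the embryo-minus-otic arrays, with OV replicate 2 alone not above background. It was 1.28-fold lower in OV than in embryo-minus-otic (q = 0.0187), a call lost without OV replicate 2 (q = 0.105) and without embryo-minus-otic replicate 2 (q = 0.0620). Against periotic tissue the difference was -0.15, with a 95% interval of -0.35 to 0.046 (q = 0.444), so probe 1 passed in that comparison and probe 2 did not. Probe 3 (ILMN_2726449) was above background on 0 of 9 arrays.

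Tcfap2d, known from retina and midbrain, and Tcfap2e, known from olfactory bulb, each had 1 probe that was above background on 0 of 9 arrays. Tcfap2d (ILMN_2657830) ranged from 5.54 to 5.98 and Tcfap2e (ILMN_1221831) from 5.62 to 6.10, with group means of 5.69 to 5.86 and 5.73 to 5.82. A level below background on these arrays does not show that the genes were silent. Over the family, 7 of 12 probes were above background throughout a group or more, and 8 on at least 1 array.

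In OV against periotic tissue, 6 of the 12 AP-2 probes were called at q under 0.05, all lower in OV, where over all probes 5.15% were called lower in OV and 5.07% higher. In OV against embryo-minus-otic, 8 of 12 were called lower in OV and 0 higher, where over all probes 5.51% were called lower and 5.89% higher. The median log2 difference of the 12 probes was -0.44 and -0.79, against -3.7e-05 and 0.0043 for all probes. Both comparisons use the same OV arrays. The called probes all belong to Tcfap2a, Tcfap2b and Tcfap2c. Probes of the same gene are repeat readings, with r up to 0.997 for Tcfap2b, so these counts and medians are not over independent genes. In periotic tissue against embryo-minus-otic, 2 of 12 were called, both of Tcfap2c and both lower in periotic tissue, where over all probes 2.95% were called lower and 2.86% higher. Under median normalization the calls over all probes were 638 higher and 244 lower in that comparison, against 736 and 757 here. For OV against embryo-minus-otic they were 1312 and 573, against 1513 and 1417.

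**Figure D2:**
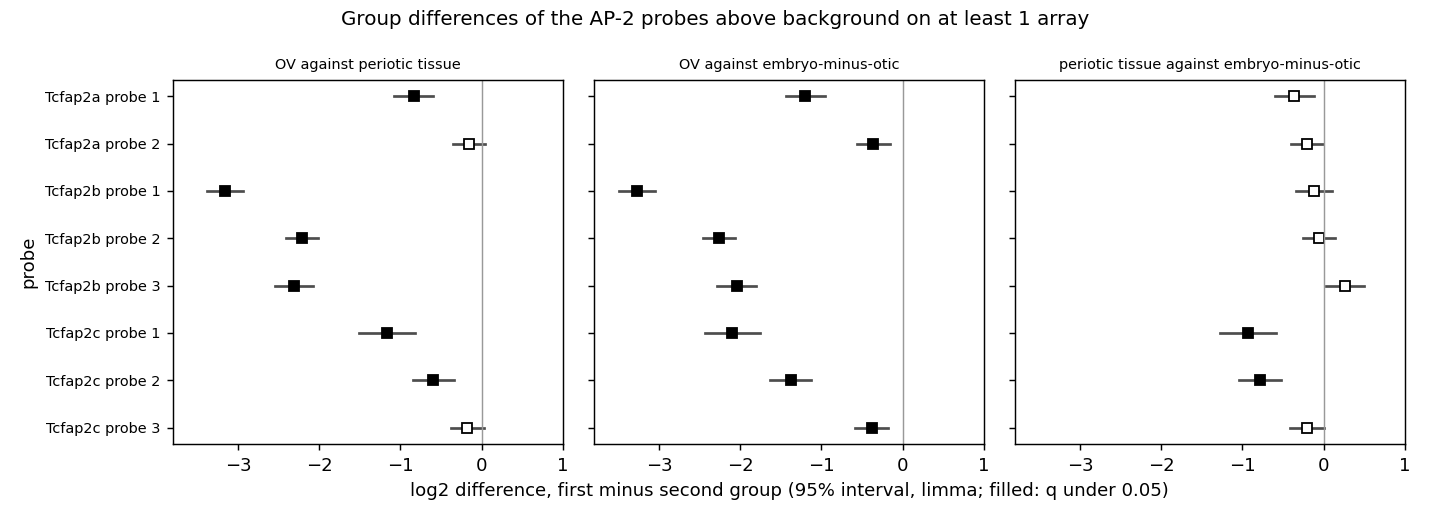
Log2 difference between group means for the 8 AP-2 probes above background on at least 1 array, with the 95% interval of the limma fit and filled squares at q under 0.05. Differences of the Tcfap2b probes lie near -2 or -3 in both OV panels and near 0 between the non-otic groups, where only Tcfap2c probes 1 and 2 are filled.

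No Tcfap2b probe was called between the non-otic groups. Periotic tissue minus embryo-minus-otic was -0.12 for probe 1 (95% interval -0.34 to 0.10, q = 0.691), -0.060 for probe 2 (-0.26 to 0.14, q = 0.849) and 0.27 for probe 3 (0.027 to 0.50, q = 0.240). The arrays of the groups overlapped for probes 1 and 2, whereas all periotic arrays of probe 3 were above the embryo-minus-otic arrays. The sign of probes 1 and 2 turned under median normalization, a median shift or no normalization, and neither was called there. Whether the paralogs differed in this step was tested on the log2 ratio of their first probes within each of the 6 non-otic arrays. The ratio of Tcfap2c to Tcfap2b was -1.73 ± 0.47 (SD, n = 3) in periotic tissue and -0.92 ± 0.20 in embryo-minus-otic, a difference of -0.82 with no overlap. The ratio of Tcfap2c to Tcfap2a differed by -0.57, also with no overlap, and that of Tcfap2a to Tcfap2b by -0.25 with overlap. A two-sided exact permutation test gave p = 0.10, 0.10 and 0.30, or 0.15, 0.15 and 0.30 after adjustment over the 3 ratios. With 3 arrays against 3 this test cannot go below 0.10, so the design could not pass a threshold of 0.05.

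Cofactors of AP-2 were called in both directions. Of 5 coactivators, 4 were above background throughout a group or more. In OV against periotic tissue 2 were called higher and 0 lower, and in OV against embryo-minus-otic 2 higher and 1 lower. Over all probes, 5.07% were called higher and 5.15% lower in OV than in periotic tissue. Against embryo-minus-otic these shares were 5.89% and 5.51%. Cited1, a transactivator that binds p300, read 6.58, 6.79 and 6.85 in OV against 6.31, 6.11 and 6.26 in periotic tissue, 1.43-fold higher (q = 0.00170), and was 1.31-fold higher than in embryo-minus-otic (q = 0.0143). Ep300, which encodes the acetyltransferase p300, stood 1.24-fold higher in OV than around it in periotic tissue (q = 0.0350) and 1.40-fold higher than in embryo-minus-otic (q = 0.00118). Cited4, of the same family as Cited1, was 1.48-fold lower in OV than in embryo-minus-otic (q = 0.00518) and 1.68-fold lower in periotic tissue than there (q = 9.77e-04). Each of these differences kept its sign under 4 other scalings, but only Cited1 against periotic tissue, Cited1 against embryo-minus-otic, Ep300 against embryo-minus-otic and Cited4 between the non-otic groups were called in 4 of the 5 scalings, and none in all 5. Cited2 and Crebbp, the latter a relative of p300, were not called in any comparison, with q from 0.568 to 0.901. Cited2 was above background on every array. Crebbp was above background on none, so its missing calls do not show an equal level. Kctd15, a BTB protein that represses AP-2 activity, lay between 8.30 and 8.50 in all group means and was not called (q = 0.212 to 0.880). Kctd1 was not analysed here.

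Genes described as direct AP-2 targets moved in both directions. Of 7 targets, 4 were above background throughout a group or more, and 2 were called higher and 2 lower in OV in each of the OV comparisons. Each direction of these comparisons had 5.07% to 5.89% of all probes called. Cdh1, the epithelial cadherin, had a mean of 9.08 ± 0.070 (SD, n = 3) in OV, 7.35 ± 0.21 in periotic tissue and 7.76 ± 0.16 in embryo-minus-otic. Its OV mean was thus 3.32-fold above that of periotic tissue (q = 2.52e-08) and 2.49-fold above that of embryo-minus-otic (q = 6.50e-07). Cdkn1a, which encodes the cell cycle inhibitor p21, was 3.62-fold and 2.42-fold higher (q = 1.10e-08 and 8.90e-07). Hoxa2, which patterns hindbrain and second-arch crest, read 7.88, 7.92 and 7.52 on the OV arrays, 10.1, 10.4 and 10.4 on the periotic arrays and 8.36, 8.70 and 8.57 in embryo-minus-otic. It was 5.80-fold lower in OV than in periotic tissue (q = 1.06e-09), 1.71-fold lower than in embryo-minus-otic (q = 4.70e-04, called in 3 of 5 scalings) and 3.39-fold higher in periotic tissue than in embryo-minus-otic (q = 1.91e-07).

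Krt14, the basal keratin listed on the array as Krt1-14, shared the order of Tcfap2c. It was above background on 0 of 3 OV arrays, 2 of 3 periotic arrays and 3 of 3 embryo-minus-otic arrays. It was at least 1.92-fold higher in embryo-minus-otic than in OV (q = 8.90e-07) and 1.88-fold higher than in periotic tissue (q = 7.90e-05), while its difference between OV and periotic tissue was called in only 1 of 5 scalings (q = 0.0450). Between the non-otic groups 1 target was called higher and 3 lower in periotic tissue, the 3 being Krt14, Cdkn1a and Cdh1. Over all probes 2.86% were called higher and 2.95% lower there. The calls of Cdkn1a (1.49-fold, q = 0.00459) and Cdh1 (1.33-fold, q = 0.0433) held in 2 and 1 of the 5 scalings. Krt5, Dbh and Esr1 were not above background in all arrays of any group, and Kit and Erbb2 were not analysed here. The median log2 difference of the 7 targets was 0.022, -0.067 and -0.17 in the 3 comparisons. These medians are the values of Krt5, Dbh and again Krt5, which were above background on 0 arrays of any group. They therefore do not describe the measured targets.

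**Figure D3:**
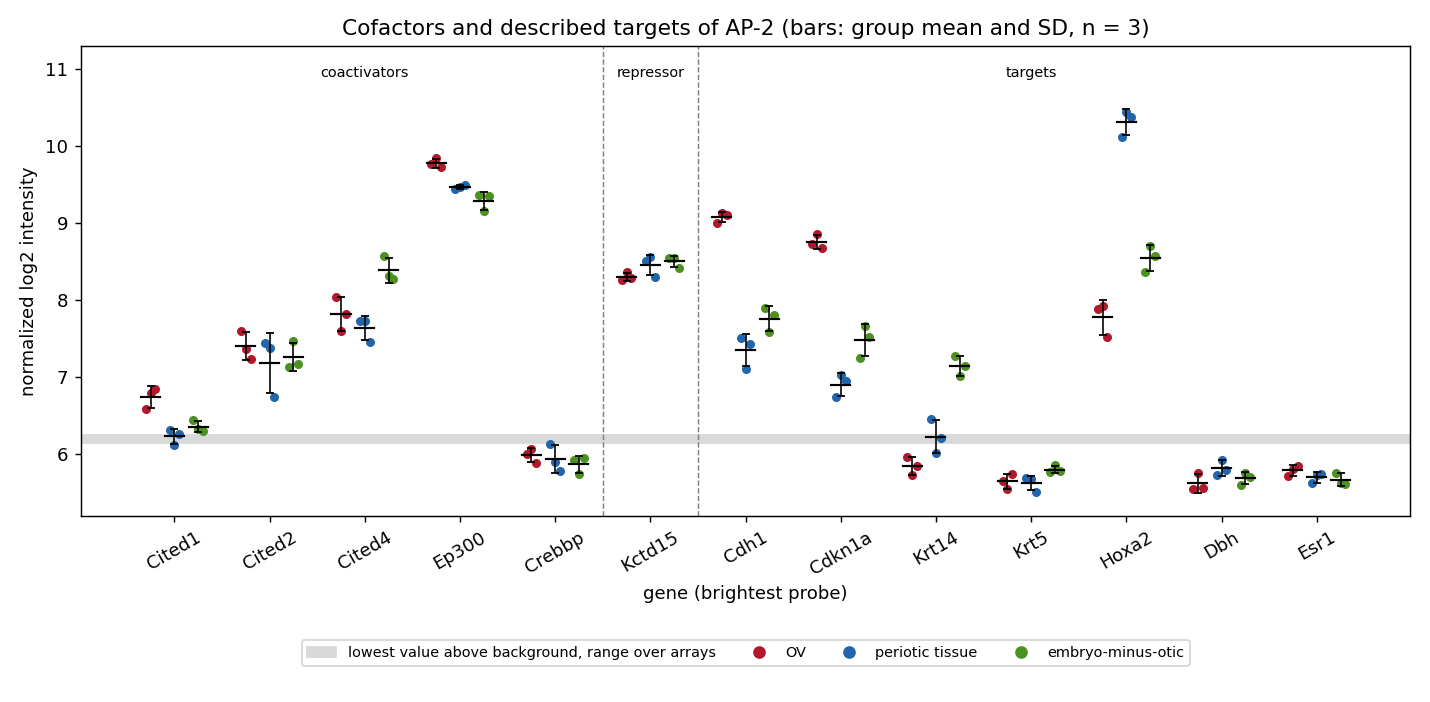
Normalized log2 intensity of 6 cofactors and 7 described targets of AP-2 on each array (brightest probe per gene), with the mean and SD of each group of 3. Cdh1 and Cdkn1a are highest in OV, Hoxa2 is highest in periotic tissue and Krt14 is highest in embryo-minus-otic.

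Markers of the cell types that carry AP-2 factors also differed between the groups. Beside the marker counts here and below, 5.07% to 5.89% of all probes were called in each direction of an OV comparison. Between the non-otic groups 2.86% of all probes were called higher and 2.95% lower in periotic tissue. Of 12 cranial and crest mesenchyme markers, 4 were lower and 2 higher in OV than in periotic tissue, and 8 were lower than in embryo-minus-otic, with summed levels of 2435 to 2963 in OV, 6789 to 8283 in periotic tissue and 5555 to 6872 in embryo-minus-otic. Crabp1, a retinoic acid binding protein of migrating crest and hindbrain, had the widest gap to periotic tissue, with means of 9.14 in OV, 12.2 in periotic tissue and 10.7 in embryo-minus-otic. It made up 62.2% of the periotic sum, and without it the sums were 1954 to 2322, 2794 to 2905 and 3988 to 5307. Of 4 migrating crest markers, 0 were called higher and 1 lower in OV than in periotic tissue, and 1 higher and 2 lower than in embryo-minus-otic. The higher call was Sox8 (q = 0.0427), which was called in only 1 of the scalings. The lower calls against embryo-minus-otic were Ednrb, called in every scaling, and Mitf (q = 0.0229). Mitf was called in only 2 of the scalings and was above background on no array. Ednrb, the endothelin receptor, had log2 differences of -2.95 (OV minus periotic tissue) and -1.45 (OV minus embryo-minus-otic; q = 9.71e-12 and 1.27e-08). The summed level of that list was 602.7 to 638.1 in OV, 3223 to 3613 in periotic tissue and 1295 to 1435 in embryo-minus-otic. Ednrb made up 67.0%, 94.3% and 84.8% of it, and without Ednrb the sums were 200.5 to 211.3, 193.0 to 196.4 and 188.3 to 212.8. Of 9 hindbrain and neural tube markers 7 were lower in OV than in periotic tissue and 4 lower than in embryo-minus-otic. Among the 7, Sox3 was called in 4 of the 5 scalings and Pax3 in 2. Pax3 was above background on only 1 array, in periotic tissue. Nes, among the 4, was called in 3 of the 5 scalings. The median log2 difference between OV and periotic tissue was -0.097 for mesenchyme, 0.034 for migrating crest and -1.75 for hindbrain markers. Between OV and embryo-minus-otic it was -1.003, -0.22 and -0.19. Both migrating crest medians lie between the values of Foxd3 and Mitf, which were above background on no array. The -0.19 is the value of Sox3, above background on no array of OV or embryo-minus-otic. The part of these cells in the Tcfap2b difference was not tested.

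Of the 14 surface and general epithelium markers, Trp63 and Krt14 were called in the order of Tcfap2c, and both are singled out here after their values were seen. Trp63, the p53 relative that marks basal surface ectoderm, was above background on 0 of 3 OV arrays and read 7.43, 6.97 and 7.37 on the periotic arrays and 7.95, 7.86 and 8.02 on the embryo-minus-otic arrays. Periotic replicate 2, the lowest of its group for Tcfap2c probes 1 and 2, was also the lowest for 10 of the 14 markers, a count made after seeing the data. Perp and Cldn7, among these 10, were above background on 0 of 3 periotic arrays. The share of all probes that were lowest on that array was not counted, so the count draws no link. In the list as a whole, 8 markers were called higher and 2 lower in OV than in periotic tissue, 7 higher and 2 lower than in embryo-minus-otic, and 7 lower in periotic tissue than in embryo-minus-otic. The largest differences went the other way, with Cldn6, Esrp1 and Grhl2 higher in OV than in periotic tissue by 4.40, 4.02 and 2.37 log2. The summed level of the list was 11462 to 12127 in OV, 1412 to 1834 in periotic tissue and 2686 to 3461 in embryo-minus-otic. Its part in the Tcfap2c difference was not tested.

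Some markers of heart, limb bud and kidney were higher in embryo-minus-otic than in the other groups. All 5 heart muscle markers, 3 of 8 limb bud markers and 2 of 6 kidney markers were called lower in OV and in periotic tissue than there. Wt1, of nephric mesenchyme and mesothelium, was at least 4.24-fold higher there than in OV (q = 4.68e-10), and Fgf8, of the limb ridge and facial ectoderm, was at least 4.10-fold higher there than in periotic tissue (q = 3.70e-08). Blood RNA differed as well, since all 6 erythroid markers were lower in OV than in both groups, with summed levels of 12087 to 29877 in OV, 47393 to 55610 in periotic tissue and 61719 to 69294 in embryo-minus-otic. The part of these tissues in the AP-2 differences was not tested.

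The probes whose pattern was most like each AP-2 probe were ranked by Pearson r over the 9 arrays among 11842 candidate probes. For Tcfap2b, A830059I20Rik led for probe 1 (r = 0.994) and probe 2 (r = 0.996) and Crip2, a LIM domain protein, for probe 3 (r = 0.996), and Crip2 was among the 5 most alike for all 3 probes. Kcnh2, a potassium channel, and Acas2l were each shared by 2 of the 3 lists. Probe 1 also listed Agpt2, probe 2 Ppp1r1a and Dscr1, and probe 3 D330045A20Rik and the homeobox genes Meis1 and Hoxd3. Since they were picked by r, these genes had to share the Tcfap2b pattern, lower in OV and close in both other groups. Examples are Hoxd3 with 5.97, 8.64 and 8.26 and Dscr1 with 8.64, 9.33 and 9.33. Unlike Tcfap2b, some were far above background in OV, such as Crip2 at 9.33. For Tcfap2c the lists were Ptpla, Ppp2r5a, Rarb, Trp63 and Plvap for probe 1 (r = 0.975 to 0.981) and Plac1, Col1a1, 2310057H16Rik, Krt1-14 and Ppp2r5a for probe 2 (r = 0.976 to 0.984). Rarb, a retinoic acid receptor, stood at 6.44 in OV, 7.31 in periotic tissue and 8.58 in embryo-minus-otic. For Tcfap2a they were Mmrn2, Vldlr, 4933428G20Rik, Mef2c and Eng for probe 1 (r = 0.965 to 0.982) and Uck2, Slc16a10, Ptpla, Rfc5 and Mt1 for probe 2 (r = 0.931 to 0.953). The 9 points are 3 groups of 3 arrays, so r mostly follows the group means, and with Spearman ranks no more than 1 of each 5 was kept.

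Among the AP-2 probes themselves, r was 0.984 to 0.997 between Tcfap2b probes 1 to 3, 0.975 between Tcfap2c probes 1 and 2, and 0.860 between Tcfap2a probes 1 and 2. Between paralogs, Tcfap2a probe 1 had r = 0.975 with Tcfap2c probe 1 and 0.928 with Tcfap2b probe 1, and Tcfap2b probe 1 had 0.873 with Tcfap2c probe 1.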

How the data were processed

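RNA from 9 pools of E10.5 mouse tissue was measured on Illumina MouseRef-8 v2.0 arrays of 1 colour. Per probe and array, the authors deposited an average signal, an intensity with no normalization between arrays, and a detection p-value that ranks it against negative control beads. Whether a background was subtracted, and the slide of each array, is not given in the sources used here. Intensities were log2 transformed from the deposited values (floor 1, lowest value 32.8) and quantile normalized. In R 4.3.3, limma 3.58.1 was run on all 25697 probes with 1 model of 3 groups with an empirical Bayes prior, and each comparison was adjusted by Benjamini-Hochberg over all probes. Probes were not averaged by gene. The script was tested on simulated data.

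The members and all gene lists were chosen with earlier results of these data known. Named genes were all AP-2 probes, the 5 probes most alike to each measured one, the brightest probe of each cofactor and target, and up to 3 called members of each marker list. Not all of the latter are described, and 3 listed genes are not reported here. Genes were matched by array symbol or a RefSeq synonym. Summed marker levels are sums of normalized values on the linear scale. Each mean rests on 3 arrays, which limits its precision.

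Alternatives were neqc (offset 16), median and no normalization, a filter on probes above background, fits restricted to each pair of groups, an intensity trend, array weights, a block for the replicate number, each array left out, Spearman ranks and a detection p under 0.05.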

Additional observations from a re-analysis of the deposited data

How the results depend on the processing

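For the 8 called or measured AP-2 probes in 3 comparisons, 410 of 429 values under other settings kept direction and side of the threshold, 13 lost their call and 6 turned sign. All calls of Tcfap2a probe 1, Tcfap2b probes 1 to 3 and Tcfap2c probes 1 and 2 between OV and either other group held in every setting tried. The count of AP-2 probes called between periotic tissue and embryo-minus-otic, 2 as reported, was 0 under median normalization and 1 under a median shift without scaling, the latter an alternative chosen after seeing the data. In that comparison Tcfap2b probe 1 turned to 0.22, 0.15 and 0.016 and probe 2 to 0.19, 0.15 and 0.021 under median normalization, the median shift and no normalization, none of them called. The cause was not tested. The calls of Tcfap2a probe 2 and Tcfap2c probe 3 in OV against embryo-minus-otic were lost in 5 settings each, with q up to 0.179 and 0.150. Leaving out 1 array at a time gave 6, 6 to 8 and 2 called AP-2 probes in the 3 comparisons. Under median normalization the counts of list genes also fell. Coactivators higher in OV than in periotic tissue went from 2 to 1, and those lower in OV than in embryo-minus-otic from 1 to 0. Targets lower in OV went from 2 to 1 in both OV comparisons, and those lower in periotic tissue than in embryo-minus-otic from 3 to 1. Crest mesenchyme markers went from 4 to 2 lower and 2 to 0 higher in OV against periotic tissue. Without normalization, 0 coactivators were called in either OV comparison.

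With the replicate number as a replicate block, 6, 8 and 2 AP-2 probes were called, the same counts as without it. Same-numbered arrays deviated together with r from 0.011 to 0.23, over 0.1 in only 5 of 9 pairs, and the sources used here do not tie a number to a litter, so the numbers were not taken as pairs, although in 15 of 18 comparisons with another group an array was closest to the one with its own number. Probes near background, such as Tcfap2b in OV, understate folds, and 4 of 12 probes were above background on no array.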
